A study of Homo sapiens with 4 samples.

Results

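The long noncoding RNAs MALAT1 and NEAT1 were described together with 7 genes for proteins of the paraspeckle: SFPQ, NONO, PSPC1, RBM14, CPSF6, NUDT21 and TARDBP. These 9 genes were taken by symbol from a table of 56832 genes, and all 9 passed the filter on low values. The symbols were selected on their measured differences between octanoate and vehicle, to ask whether RNAs of the proteins follow NEAT1. Their differences between the groups are therefore a description, with standard errors (SE) but no p-values. The cells were A375, an established human melanoma line labelled wild type and grown in DMEM with serum. Plates received 1 mM octanoate, the anion of a saturated fatty acid of medium length, or the isopropanol vehicle. Exposure lasted 48 h, and each group had 2 libraries. Nothing in the labels says whether the libraries of a group came from separate cultures, so tests measure only the spread between these libraries.

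Paraspeckles are nuclear bodies built on NEAT1. The gene gives a short polyadenylated transcript and a long transcript, which start at the same promoter, and only the long one builds the body. SFPQ, NONO and PSPC1 form dimers that bind NEAT1 along its length, and RBM14 helps to assemble the particle. CPSF6 and NUDT21 are subunits of cleavage factor Im, which promotes the end of the short transcript, and TARDBP encodes TDP-43, an RNA-binding protein of paraspeckles and of splicing. MALAT1, made from the neighbouring gene, gathers in nuclear speckles, which store splicing factors.

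The RNAs differed in direction. MALAT1 and NEAT1 were about 2.10-fold and 1.89-fold higher under octanoate, and the RNAs of all 7 proteins were lower, with changes of -19.3% to -11.3%. In direction, the protein RNAs did not follow NEAT1.

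NEAT1 and MALAT1 lie next to each other on chromosome 11 of GRCh38, both on the plus strand. In GENCODE 29 the NEAT1 gene spans 65422774 to 65445540 and MALAT1 spans 65497688 to 65506516, with 52.1 kb between them. Their ends are shown because CPSF6 and NUDT21, of the proteins described here, act at the end of the short NEAT1 transcript. The 2 RNAs also share their unusual 3′ end. The first sequence (chr11:65426394-65426543, plus strand) spans 150 bases around the farthest end, at 65426513, among the 7 short NEAT1 transcripts. Capitals mark TGTA, the DNA form of the UGUA element that NUDT21 binds, and AATAAA, the polyadenylation signal, searched on the transcribed strand only.
NEAT1 short transcript end: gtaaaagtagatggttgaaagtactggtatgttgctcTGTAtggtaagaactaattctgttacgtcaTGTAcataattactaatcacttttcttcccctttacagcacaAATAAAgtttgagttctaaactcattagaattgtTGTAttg

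The window holds TGTA 3 times and AATAAA once. Of 151 consecutive windows of 150 bases along the long NEAT1 transcript, 55.6% hold TGTA, 8.61% hold it at least 3 times and 4.64% hold AATAAA. A match describes letters and is no evidence of binding. The next pair of sequences gives the 100 bases before the tRNA-like element at the end of long NEAT1 (chr11:65445441-65445540) and before that of MALAT1 (chr11:65506017-65506116). Capitals mark a U-rich stretch of the same letters in both and the final GCAAAA, which belong to the elements known to fold into a stabilising triple helix.
NEAT1 long transcript end: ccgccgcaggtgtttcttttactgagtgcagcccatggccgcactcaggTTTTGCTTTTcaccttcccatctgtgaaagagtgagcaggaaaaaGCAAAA
MALAT1 end: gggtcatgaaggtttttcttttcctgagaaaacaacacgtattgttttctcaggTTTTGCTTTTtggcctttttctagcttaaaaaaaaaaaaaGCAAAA

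Each stretch holds both motifs once. Among 314 consecutive windows that do not overlap, each of 100 bases along the transcripts of both genes, 0.318% (1 window) hold the U-rich stretch and 6.05% hold GCAAAA, where a match across a window's edge is missed. The tRNA-like elements that follow are cut off by ribonuclease P, which leaves the 3′ end of the long RNA without a usual poly(A) tail. They lie at chr11:65445541-65445598 for NEAT1 and at chr11:65506117-65506173 for MALAT1, and capitals mark the bases identical in an alignment of the pair.
NEAT1 tRNA-like element: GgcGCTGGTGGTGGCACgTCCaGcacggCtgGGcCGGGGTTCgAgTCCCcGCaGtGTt
MALAT1 tRNA-like element: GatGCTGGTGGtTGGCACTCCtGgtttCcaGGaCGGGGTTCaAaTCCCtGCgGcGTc

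The pair matched at 40 of 59 aligned positions (67.8%). The deposited table lists the name these elements share in GENCODE, RF01684, at 0 reads in all 4 libraries, which allows up to 3 reads in each. That limit covers counting error only. RF01684 overlaps 57 exon bases of MALAT1 on the same strand, so reads there may not have been counted for it. The value of 0 therefore gives no level for the tRNA-like RNA.

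MALAT1 was the most abundant of the 9 genes by count under octanoate. Values are read counts divided by the library's size factor, here called normalised counts. They were 46874 and 49756 in vehicle against 93107 and 110087 in octanoate. Both octanoate libraries thus lay far above both vehicle libraries. The means were 48315 ± 2038 and 101597 ± 12007 (SD, n = 2 each), and the log2 difference of octanoate minus vehicle was 1.07 (SE 0.07) on the scale of log2(normalised count + 1).

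NEAT1, the scaffold of the paraspeckle, had normalised counts of 9204 and 10751 in vehicle and 17033 and 20741 in octanoate. The lower octanoate library was still above the higher vehicle library. The means were 9978 ± 1094 and 18887 ± 2622 (SD, n = 2 each), with a log2 difference of 0.92 (SE 0.08). Replicate 2 was above replicate 1 in both groups, for NEAT1 as for MALAT1. NEAT1 and MALAT1 values rested on at least 9377 reads in every library, so counting error was small beside the spread between libraries. A gene-level count adds the short and long NEAT1 transcripts, which share the first 16.3% of the long one, so a change in their balance was not measured.

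**Figure D1:**
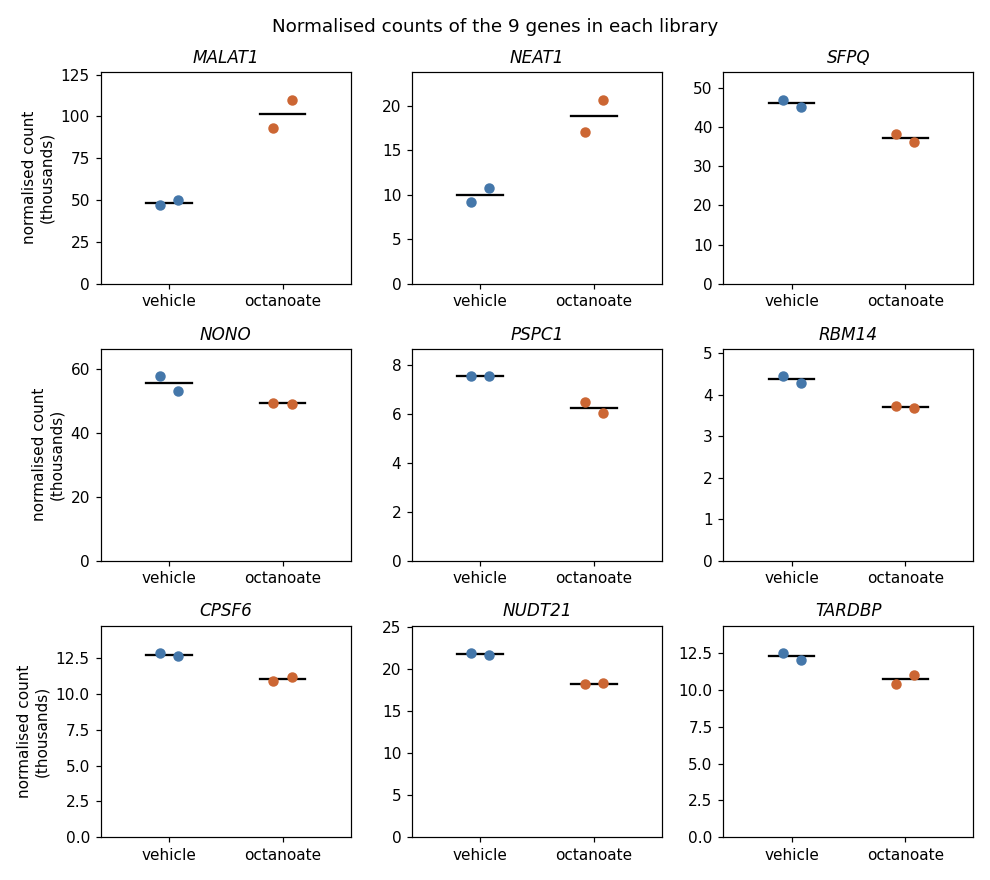
Normalised counts of the 9 genes, divided by 1000 (vertical axes from 0, a separate scale for each gene) in the 2 vehicle (blue) and 2 octanoate (orange) libraries; each point is a library and each black bar the group mean. MALAT1 and NEAT1 were higher in both octanoate libraries and the 7 protein genes were lower in both, with no overlap between the groups.

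The protein genes lie at other places in GENCODE 29, apart from RBM14, which is on chromosome 11 as well (66616582 to 66627347, plus strand). SFPQ (35176378 to 35193148, minus) and TARDBP (11012344 to 11026420, plus) are on chromosome 1, and NONO (71283192 to 71301168, plus) is on chromosome X. PSPC1 is on chromosome 13 (19674752 to 19783019, minus), CPSF6 on 12 (69239537 to 69274358, plus) and NUDT21 on 16 (56429133 to 56452199, minus). Among the proteins of the core family, SFPQ showed the largest difference. SFPQ, a splicing factor that NEAT1 can hold in paraspeckles, had 47011 and 45154 normalised counts in vehicle and 38207 and 36208 in octanoate. The gap between the groups exceeded the distance between replicates in either group. The means were 46083 ± 1313 and 37207 ± 1414 (SD, n = 2 each), 19.3% lower under octanoate, with a log2 difference of -0.31 (SE 0.06).

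NONO, the dimer partner of SFPQ, had 57778 and 53287 normalised counts in vehicle and 49546 and 48997 in octanoate. Its groups did not overlap, but the vehicle libraries differed from each other by more than the lower of them differed from octanoate. The log2 difference was -0.17 (SE 0.06), the smallest of the 9 genes, and was -0.11 without vehicle 1. PSPC1, of the same family, had 7536 and 7540 normalised counts in vehicle and 6504 and 6023 in octanoate, a log2 difference of -0.27 (SE 0.06). The vehicle values of PSPC1 were nearly equal and both octanoate values lay below them. RBM14, which carries a prion-like domain, had 4447 and 4298 in vehicle and 3739 and 3688 in octanoate, a log2 difference of -0.24 (SE 0.06). Its 2 octanoate libraries were closer to each other than its vehicle libraries were.

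Both cleavage factor Im genes among the 9 were lower under octanoate. NUDT21, which recognises UGUA, had 21939 and 21699 normalised counts in vehicle and 18228 and 18374 in octanoate, a log2 difference of -0.25 (SE 0.06). CPSF6, its larger partner, had 12825 and 12601 in vehicle and 10882 and 11196 in octanoate, a log2 difference of -0.20 (SE 0.06). For both, the gap between the groups was several times the distance between replicates. CPSF7, a further subunit outside the 9 genes, had a log2 difference of -0.09 (adjusted p 0.238 in limma). TARDBP had 12479 and 12030 in vehicle and 10401 and 11001 in octanoate, a log2 difference of -0.20 (SE 0.06), with no overlap.

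All 9 genes were called in the fit over all genes with limma at a Benjamini-Hochberg adjusted p under 0.05. The background is high: 29.9% of the 20250 tested genes were called, 16.2% higher and 13.7% lower. Of the 9003 tested genes with a mean of at least 1000 normalised counts, like the 9 described here, 18.1% were called higher and 20.0% lower. Octanoate and vehicle libraries were fully separated for each of the 9 genes. The same held for 63.1% of all tested genes (32.6% higher, 30.5% lower) and for 69.4% of those with a mean of at least 1000 (31.2% higher, 38.2% lower). Because the genes were proposed from these differences, nothing is read from their counts. The calls rest on how variances are shared between genes. Without an intensity trend in the variance prior only MALAT1 was called. With every gene that had a read, MALAT1, NEAT1, SFPQ, RBM14 and NUDT21 were called. NONO also depended on scaling: it was not called with TMM factors or after removing dependence on GC content and length. In the authors' deposited table all 9 were listed at an adjusted p under 0.05, against 12.9% of its 33533 genes (6.89% higher, 6.01% lower). That share is over all genes listed there, those of low count included, so it is not matched to the level of the 9 genes. The log2 fold change in the authors' deposited table was 1.07 for MALAT1, 0.92 for NEAT1 and between -0.31 and -0.17 for the protein genes.

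Leaving out 1 library changed calls among the protein genes. NONO was not called without octanoate 1, without octanoate 2 or without vehicle 1. TARDBP was not called without octanoate 1 or without vehicle 1, and CPSF6 was not called without octanoate 1. Over these refits the log2 difference ranged from -0.35 to -0.27 for SFPQ and from -0.32 to -0.21 for PSPC1. It ranged from -0.26 to -0.21 for RBM14 and from -0.26 to -0.25 for NUDT21. The refits use the same values that the genes were chosen from, so they describe spread and lend no support.

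**Figure D2:**
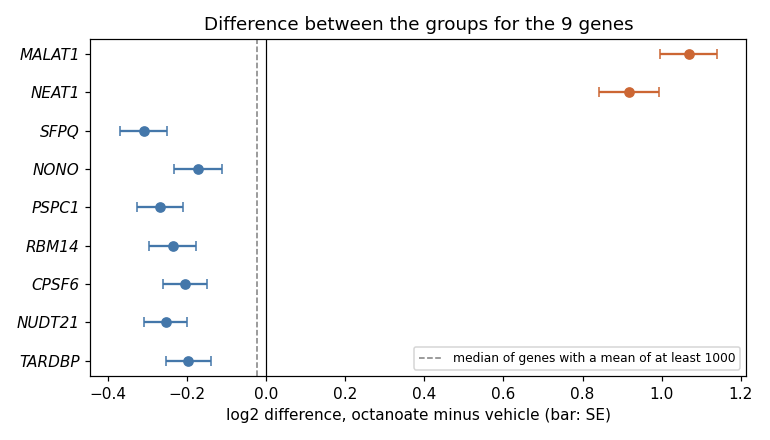
Log2 difference of octanoate minus vehicle for the 9 genes (horizontal axis; bars are the SE) and the median of tested genes with a mean of at least 1000 (dashed line, -0.02). The 2 noncoding RNAs sit near 1 and the 7 protein genes between -0.31 and -0.17.

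The 7 protein genes had similar differences, and since they were chosen on these differences the likeness is only a description. Their log2 differences spanned -0.31 to -0.17 with a median of -0.24, where the SE of each was 0.06. Neighbours in the order of these differences were thus closer to each other than 1 SE.

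To set NEAT1 against each protein, the ratio of normalised counts was formed within each library. NEAT1 to SFPQ was 0.196 and 0.238 in vehicle and 0.446 and 0.573 in octanoate. NEAT1 to NONO was 0.159 and 0.202 in vehicle and 0.344 and 0.423 in octanoate. Each ratio was higher in both octanoate libraries than in either vehicle library, and mean ratios were 2.12-fold (NONO) to 2.35-fold (SFPQ) higher over the 7 proteins. The genes were chosen on these differences, so the separation of the ratios lends no support. A gene with no change would give a ratio about 1.89-fold higher, from NEAT1 alone. NEAT1 to MALAT1 was slightly lower under octanoate. It was 0.196 and 0.216 in vehicle and 0.183 and 0.188 in octanoate, a log2 difference of -0.15 in the ratio. A ratio within a library does not depend on the size factors.

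**Figure D3:**
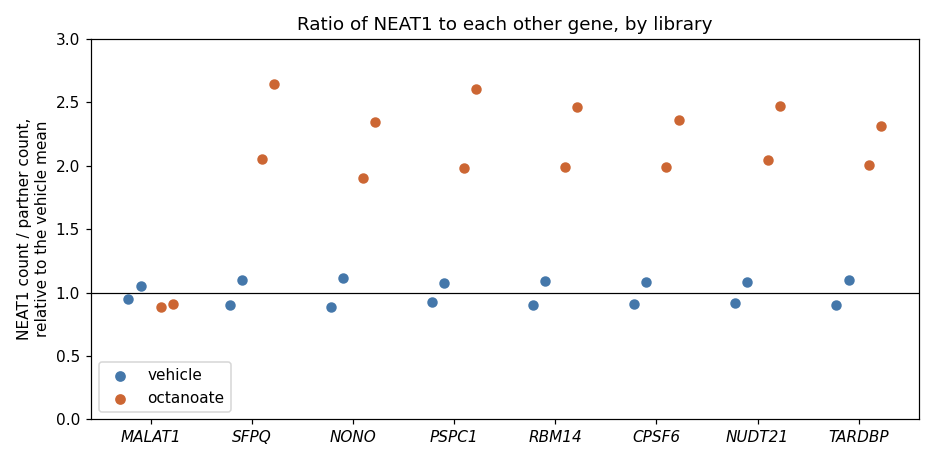
Ratio of the NEAT1 count to the count of each other gene in each library, divided by the mean of the 2 vehicle ratios (vertical axis from 0; vehicle blue, octanoate orange). The ratios to the 7 protein genes were about 2.12-fold to 2.35-fold higher under octanoate and the log2 difference of the ratio to MALAT1 was -0.15. NEAT1 alone was about 1.89-fold higher.

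Levels of different genes were compared per kilobase of the merged exons in GENCODE 29, which may differ from the annotation used for counting. In vehicle, NONO was highest at 10494 ± 600 normalised counts per kb, followed by SFPQ (6206 ± 177), MALAT1 (5472 ± 231), NUDT21 (3665 ± 28.4) and TARDBP (2019 ± 52.3; SD, n = 2 each). CPSF6 (1573 ± 19.6) and PSPC1 (1565 ± 0.608) had levels per kb that overlapped, RBM14 had 1111 ± 26.9 and NEAT1 was lowest at 438 ± 48.1. Under octanoate MALAT1 was first on this measure, at 11507 ± 1360 per kb, ahead of NONO at 9311 ± 73.4. The order of genes depends on the length used. Merged exons cover 5292 bases for NONO, 7426 for SFPQ and 8829 for MALAT1, while their longest transcripts have 3215, 3747 and 8708. Dividing by the longest transcript would keep NONO ahead of MALAT1 under octanoate. NEAT1 stayed last with 830 ± 115 per kb, just below RBM14 at 943 ± 9.26. For NEAT1 the level per kb is averaged over 22.8 kb of which the short transcript covers only the start, so it is a mixture of both.

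Promoter sequences were available in the RefSeq table (GRCh38.p14) for MALAT1, NONO, PSPC1, RBM14, CPSF6, NUDT21 and TARDBP. They were searched on both strands for CCAAT, for the GC box GGGCGG, for TATAAA, for GAANNTTC, for ACGTG, for TGACGTCA and for the direct repeat bound by PPAR and RXR. Windows run from 250 bases before to 50 bases after the RefSeq start. The promoters of MALAT1 (chr11:65497488-65497787, plus strand) and of 3 genes whose RNA was lower are shown, since their motif content differs. These are NONO (chrX:71283385-71283684, plus), RBM14 (chr11:66616380-66616679, plus) and NUDT21 (chr16:56451283-56451582, minus), and capitals mark CCAAT and GGGCGG on either strand.
MALAT1 promoter: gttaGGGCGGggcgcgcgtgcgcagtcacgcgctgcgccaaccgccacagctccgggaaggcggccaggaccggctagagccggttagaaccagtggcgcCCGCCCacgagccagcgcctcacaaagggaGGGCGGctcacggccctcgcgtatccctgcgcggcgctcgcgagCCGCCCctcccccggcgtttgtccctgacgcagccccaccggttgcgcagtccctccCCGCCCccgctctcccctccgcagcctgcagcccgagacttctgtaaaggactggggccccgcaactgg
NONO promoter: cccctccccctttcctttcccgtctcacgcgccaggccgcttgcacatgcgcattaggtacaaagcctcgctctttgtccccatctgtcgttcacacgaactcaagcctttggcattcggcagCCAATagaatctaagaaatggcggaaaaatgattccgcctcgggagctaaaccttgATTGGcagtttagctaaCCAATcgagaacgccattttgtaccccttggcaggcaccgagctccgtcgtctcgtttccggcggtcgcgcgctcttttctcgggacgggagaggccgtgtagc
RBM14 promoter: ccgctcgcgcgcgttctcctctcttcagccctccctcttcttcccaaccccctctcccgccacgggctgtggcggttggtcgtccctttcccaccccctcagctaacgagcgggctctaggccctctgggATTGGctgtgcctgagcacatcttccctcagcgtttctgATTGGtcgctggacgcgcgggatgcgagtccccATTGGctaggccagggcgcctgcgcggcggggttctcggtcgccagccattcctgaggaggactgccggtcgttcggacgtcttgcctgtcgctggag
NUDT21 promoter: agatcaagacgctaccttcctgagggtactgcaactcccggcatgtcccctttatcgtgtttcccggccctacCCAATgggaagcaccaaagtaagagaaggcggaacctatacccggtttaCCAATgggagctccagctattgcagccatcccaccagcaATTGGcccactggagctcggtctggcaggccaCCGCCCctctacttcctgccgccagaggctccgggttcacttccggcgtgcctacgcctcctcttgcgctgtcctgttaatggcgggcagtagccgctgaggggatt

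The MALAT1 window held the GC box 5 times and no CCAAT, and 5.14% of the 35116 RefSeq promoters hold the GC box at least that often. NONO, RBM14 and NUDT21 each held CCAAT 3 times, and 3.26% of promoters hold it at least that often, while 34.6% hold it at least once. NUDT21, CPSF6 and TARDBP held 1 GC box each, as 45.0% of promoters hold at least 1, and NONO, RBM14 and PSPC1 held none. CPSF6 had CCAAT once, and PSPC1 and TARDBP had none. A second MALAT1 window in the table (chr11:65498795-65499094) held TATAAA once, as 11.5% of promoters do. ACGTG was found once, in TARDBP, and is held by 21.4% of promoters. GAANNTTC (6.77% of promoters), TGACGTCA (1.85%) and the repeat bound by PPAR and RXR (0.0228%) had no match in any of these windows, which says nothing about the factors themselves.

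Of 13 tested neighbours within 152.2 kb of NEAT1, 2 rose and 2 fell in limma. That is 30.8% called, near the 29.9% of all tested genes, and their median log2 difference was -0.08, against 0.01 over all tested genes. FRMD8, the next gene upstream of NEAT1 at 9.2 kb and an adaptor of a membrane protease, had a log2 difference of 0.08 (SE of 0.06 and adjusted p 0.341 in limma). SLC25A45, a mitochondrial carrier gene, rose from 564 and 563 to 757 and 740 normalised counts, a log2 difference of 0.41 (SE of 0.09 and adjusted p 0.000681 in limma). CDC42EP2, an effector of the GTPase CDC42, rose by 0.34 (adjusted p 0.000884 in limma). MAP3K11, a kinase of the JNK pathway, fell by 0.28 on the log2 scale (adjusted p 0.00194 in limma), and TIGD3, with a mean of only 55.6 normalised counts, fell by 0.63 (adjusted p 0.0361 in limma). The abundant neighbours LTBP3, which binds latent TGF-beta, and EHBP1L1 had log2 differences of -0.11 (adjusted p 0.181 in limma) and -0.08 (adjusted p 0.310 in limma). Without vehicle 1 or without octanoate 2 only 2 neighbours were called, both higher.

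**Figure D4:**
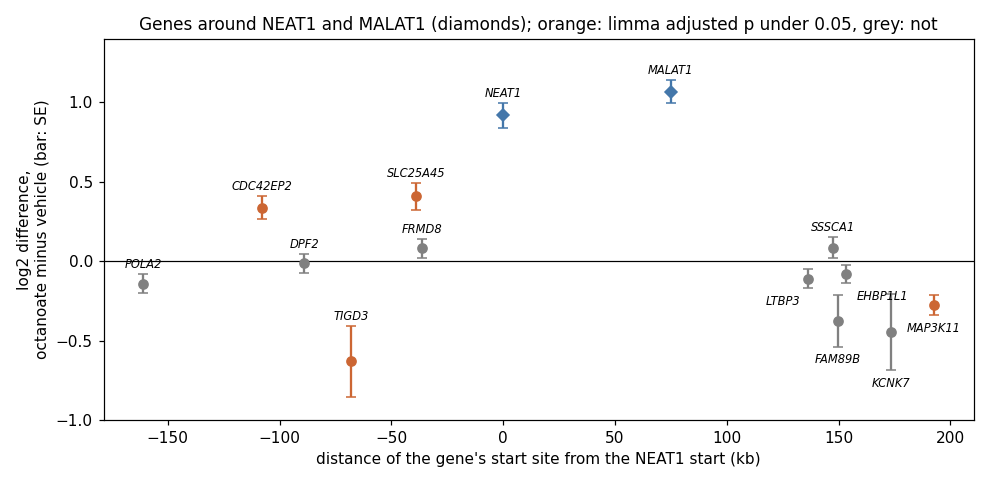
Log2 difference of octanoate minus vehicle (vertical axis; bars are the SE) against the distance of each gene's start from the NEAT1 start in kb (horizontal axis) for 12 of the 13 tested neighbours and, as blue diamonds, NEAT1 and MALAT1. The values of the neighbours drawn lie between -0.63 and 0.41, all below those of NEAT1 and MALAT1.

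Of 37 tested genes for other paraspeckle proteins, 16 fell, 2 rose and 19 were not called. The share called lower was 43.2%, against 13.7% of all tested genes and 20.0% of those whose mean was at least 1000, and the median log2 difference was -0.15, where genes with a mean of at least 1000 had a median of -0.02. RBM4B, an RNA-binding protein, fell from 1736 and 1694 normalised counts to 1276 and 1285 (log2 difference -0.42, adjusted p 4.62e-05 in limma). RBM7, a subunit of the nuclear exosome targeting complex, fell by 0.38 (adjusted p 5.18e-05 in limma), and UBAP2L, a stress granule protein, fell by 0.29 on the log2 scale (adjusted p 0.000354 in limma). ZC3H6, a zinc finger gene, rose from 206 and 208 to 335 and 353 (log2 difference 0.73, adjusted p 2.76e-05 in limma). The other gene that rose was DLX3, a homeobox gene with a mean of 52.3 normalised counts. The abundant HNRNPA1 had a log2 difference of -0.06 (adjusted p 0.539 in limma) and HNRNPH1 one of -0.15 (adjusted p 0.0650 in limma). The count of 18 calls dropped to 11 without octanoate 2, to 12 without octanoate 1, to 11 with every gene that had a read and to 3 without an intensity trend. Of those 3, 2 were higher and RBM4B was lower.

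Of 38 tested genes for proteins of nuclear speckles, where MALAT1 gathers, 15 fell and 1 rose. The share called lower was 39.5%, against the same 13.7% and 20.0%, with a median log2 difference of -0.15. Those with the largest falls were splicing regulators of the serine-arginine family. TRA2A went from 4219 and 4379 normalised counts to 2762 and 2906, a log2 difference of -0.60 (SE of 0.06 and adjusted p 4.31e-08 in limma). SRSF6 went from 17867 and 17860 to 11650 and 12210, a log2 difference of -0.58 (SE of 0.06 and adjusted p 1.72e-08 in limma). SRSF2 went from 15224 and 14632 to 10412 and 10351, a log2 difference of -0.52 (SE of 0.06 and adjusted p 9.17e-08 in limma). For these 3 genes both octanoate libraries lay well below both vehicle libraries. The kinase CLK3, which phosphorylates such proteins, rose by 0.21 (adjusted p 0.0107 in limma). SRRM2, a scaffold of the speckle, had a log2 difference of 0.02 (adjusted p 0.840 in limma), which was -0.02 without vehicle 1, and LUC7L3 one of 0.09 (adjusted p 0.289 in limma). The count of 16 was 10 with every gene that had a read and 6 without an intensity trend, all lower.

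**Figure D5:**
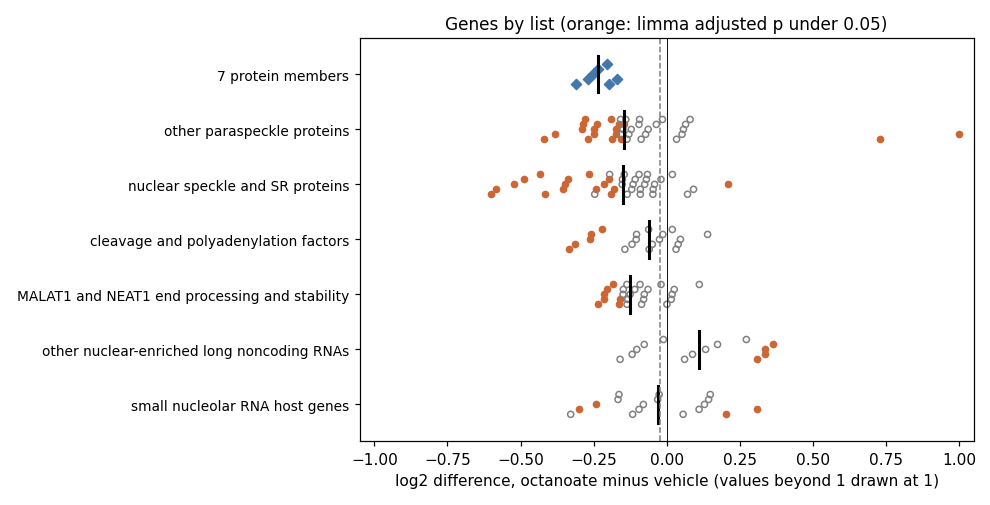
Log2 difference of octanoate minus vehicle for the tested genes of 6 lists and the 7 protein genes described here, called members on the axis (blue diamonds); orange points passed limma's threshold and open points did not, with the median of each list (black bar) and of genes with a mean of at least 1000 (dashed line); the value of DLX3, 2.70, is drawn at 1. Medians lie near -0.15 for other paraspeckle and for speckle proteins and at 0.11 for other noncoding RNAs.

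Of 19 cleavage and polyadenylation factors outside cleavage factor Im's members above, 5 fell and none rose, with a median log2 difference of -0.06. The 26.3% called is below the 29.9% of all tested genes called in either direction. As a share called lower it compares with 13.7% of all tested genes and 20.0% of those with a mean of at least 1000. CLP1 fell by 0.34, RBBP6 by 0.31 and CSTF1 by 0.26 on the log2 scale (adjusted p 0.000713, 0.000189 and 0.00146, limma), and CSTF2T and PABPN1 fell as well. PAPOLA, a poly(A) polymerase, had a log2 difference of -0.12 (adjusted p 0.112 in limma) and the nuclease CPSF3 one of -0.06 (adjusted p 0.456 in limma). Without an intensity trend 0 of these genes had a limma adjusted p under 0.05.

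Of 25 tested genes for processing and stability of MALAT1 and NEAT1 ends, 7 fell and none rose, with a median log2 difference of -0.13. The 28.0% called is near the 29.9% of all tested genes called in either direction. All of these calls were lower, however. The share called lower was 13.7% of all tested genes and 20.0% of those with a mean of at least 1000. DGCR8, the partner of the microRNA-cutting nuclease DROSHA, fell by 0.23. RPP30, a subunit of ribonuclease P, and WTAP, a subunit of the RNA methyltransferase, each fell by 0.21 (adjusted p 0.00720, 0.00925 and 0.0111, limma). ELAC2, the tRNA 3′ nuclease that trims the released tRNA-like RNA, had a log2 difference of -0.13 (adjusted p 0.106 in limma), and PABPC1 one of -0.09 (adjusted p 0.343 in limma). The 7 calls fell to 2 without octanoate 1 and without octanoate 2, and 0 without vehicle 1. They were 4 with TMM factors, 11 with equal column totals and 0 without an intensity trend.

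The list here called other nuclear noncoding RNAs had log2 differences of -0.16 to 0.37, against 1.07 for MALAT1 and 0.92 for NEAT1. Of 14 tested, 4 rose and none fell, and the 28.6% called is near the 29.9% of all tested genes called in either direction. As a share called higher it compares with 16.2% of all tested genes. LINC-PINT rose from 310 and 319 normalised counts to 370 and 444, a log2 difference of 0.37 (adjusted p 0.0141 in limma). Its log2 difference was 0.23 without octanoate 2, and it was not called there, without either vehicle library or with DESeq2. MIR22HG rose by 0.34 (adjusted p 0.00300 in limma), PVT1 by 0.34 (adjusted p 0.0125 in limma) and MIR17HG by 0.31. NORAD, at a mean of 40255 the nearest to MALAT1 in abundance on this list, had a log2 difference of -0.01 (adjusted p 0.914 in limma). Its value had either sign across the fits. For OIP5-AS1 the log2 difference was 0.09 (adjusted p 0.251 in limma). Location in the cell was not measured, so NORAD and OIP5-AS1 are not taken as nuclear RNAs to set beside MALAT1. Without octanoate 2 the calls were 2 higher and 2 lower. Without vehicle 1 only 2 of them were called, with DESeq2 2 and without an intensity trend 0.

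Of 17 tested host genes of small nucleolar RNAs, 2 rose and 2 fell. The 23.5% called is below the 29.9% of all tested genes. GAS5 rose by 0.31 (adjusted p 0.000224 in limma) and ZFAS1 by 0.20 (adjusted p 0.0359 in limma). ZFAS1 had a log2 difference of 0.12 without octanoate 1, and it was not called there, without either vehicle library or with DESeq2. SNHG11 fell by 0.30 on the log2 scale (adjusted p 0.00604 in limma) and SNHG12 by 0.24 (adjusted p 0.00874 in limma). SNHG5 and SNHG14, not called, had log2 differences of 0.14 and 0.06. Without vehicle 1 or without octanoate 1 only 2 of these host genes were called.

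Among 405 tested genes that GENCODE 29 types as long noncoding, 62 (15.3%) rose and 37 (9.14%) fell. Over all tested genes, 16.2% were called higher and 13.7% lower. The median log2 difference of the 405 was 0.05. Of the 44 with a mean of at least 1000, MALAT1 and NEAT1 included, 29.5% were called higher and 11.4% lower. The shares over all tested genes at that level were 18.1% and 20.0%. Among the 44, MALAT1 had rank 1 and NEAT1 rank 5 in abundance by count. In size of the log2 difference they had ranks 2 and 3, after MIR100HG at 1.27, a host gene of microRNAs that was chosen after its values were seen. The count of 99 calls was 62 without vehicle 2.

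Of 11 genes described as regulators of NEAT1 transcription, 1 rose and 2 fell, and the 27.3% called is near the 29.9% of all tested genes. EPAS1, the HIF-2alpha subunit that responds to low oxygen, rose from 251 and 220 normalised counts to 457 and 486, a log2 difference of 1.00 (SE of 0.11 and adjusted p 1.52e-07 in limma). HIF1A, which encodes the related HIF-1alpha subunit, had a log2 difference of 0.04 (adjusted p 0.652 in limma). STAT3 fell by 0.34 on the log2 scale (adjusted p 7.49e-05 in limma) and BRCA1 by 0.17 (adjusted p 0.0217 in limma). NFE2L2, the NRF2 gene, had a log2 difference of -0.08 (adjusted p 0.316 in limma). EPAS1 alone was called without an intensity trend.

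Among 8 tested genes linked to RNAs held or edited in paraspeckles, SLC7A2, a cationic amino acid transporter whose mouse counterpart gives a paraspeckle-held RNA, rose from 1771 and 1694 to 2237 and 2165 normalised counts. Its log2 difference was 0.35 (adjusted p 0.000285 in limma). It was 1 of 3 called genes (37.5%, against 29.9% of all tested genes), of which 2 fell. HNRNPM, a splicing regulator, fell by 0.35 (adjusted p 6.11e-05 in limma), and STAU1, which binds double-stranded RNA and opposes nuclear retention, fell by 0.19 on the log2 scale (adjusted p 0.0104 in limma). ADAR, the editing enzyme, had a log2 difference of -0.12 (adjusted p 0.126 in limma), and PRMT1, an arginine methyltransferase, one of 0.11 (adjusted p 0.177 in limma).

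Over all of these lists, 30 genes named by the fixed rule were called. Without an intensity trend 7 of the 30 were called, and with every gene that had a read 16 were. Without octanoate 1, calls were lost for BRCA1, DGCR8, PVT1, SNHG12, STAU1 and ZFAS1, and without octanoate 2 for CLK3, LINC-PINT, MAP3K11, RPP30, STAU1 and WTAP. Without vehicle 1 they were lost for BRCA1, DGCR8, LINC-PINT, MAP3K11, PVT1, RPP30, SNHG12, STAU1, WTAP and ZFAS1, and without vehicle 2 for BRCA1, CLK3, LINC-PINT and ZFAS1. None of the 30 changed sign in the alternative fits.

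The genes whose pattern over the 4 libraries was most like that of NEAT1 were found among the 9002 other genes with a mean of at least 1000. Likeness was the root mean square difference of log2 values, each gene centred on its own mean. MAP1B, a microtubule-associated protein gene, was nearest to NEAT1 (0.07), then MALAT1 (0.09) and TRHDE (0.09), which encodes a peptidase that breaks down thyrotropin-releasing hormone. MAP1B had 4128 and 4378 normalised counts in vehicle and 7481 and 8233 in octanoate. Nearest to MALAT1 were TRHDE, AC087886.1 and USP53 (0.06 each), and NEAT1 had rank 7. With 4 libraries, such likeness mostly repeats the difference between the groups.

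Sequence shared with other genes makes some values uncertain, and whether counting was stranded is not given in the sources used here. AP000769.2, on the opposite strand, overlaps 396 exon bases of MALAT1, and PSPC1-AS2 overlaps 36 of PSPC1. AL109811.4 overlaps 1760 exon bases of TARDBP on the same strand. RBM14-RBM4, a readthrough gene with a mean of 26.0 normalised counts, shares 432 bases with RBM14. NONO shares 1417 bases at 96.7% identity with AC092115.1, and no shared stretch or overlap was found for SFPQ or NUDT21. Of the other named genes, HNRNPA1 shares sequence with 44 genes, RBM4B overlaps RBM4 on the opposite strand, SRSF2 overlaps MFSD11 and WTAP overlaps SOD2.

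Recovered read totals ran from 67785956 to 78005035 per library. Of 11 melanocyte and melanoma markers, 10 passed the filter. SOX10 (mean 38084), AXL and MITF were abundant, while pigment genes such as MLANA (mean 43.9) and PMEL were low. In limma 4 of the 10 (40.0%) were called, against 29.9% of all tested genes. S100B (log2 difference -1.12) and MITF (-0.48) fell, and PMEL (0.55) and AXL (0.42) rose. Summed levels of the 13 mitochondrial transcripts were 1981000 and 1850000 in vehicle and 2185000 and 2094000 in octanoate. Summed levels of 4 endothelial markers were 580 and 577 in vehicle and 792 and 787 in octanoate, with none at 0. PECAM1 and VWF were called higher, while KDR and CDH5 (log2 difference -0.31) were not called. The 7 immune markers summed to 673 and 605 against 728 and 778. Most of that sum was LYZ (635 and 574 against 700 and 749), which was called higher (log2 difference 0.26). Of the 7, 5 had a mean under 10. The 7 fibroblast markers summed to 2642 and 2594 against 2419 and 2266. Among them COL1A1 (log2 difference -0.69) and COL1A2 (-0.99, at a mean of 26.3) were called lower and 5 were not called. That is 28.6% called, near the 29.9% of all tested genes. The 7 keratinocyte and epithelial markers, with KRT1 at 0, summed to 18820 and 16470 against 15430 and 14620. Among these, KRT14 fell from 1110 and 942 normalised counts to 266 and 218, a log2 difference of -2.08 (adjusted p 2.40e-13 in limma). KRT18 (mean 12143) and KRT8 made up most of the keratinocyte and epithelial sum. Their log2 differences were -0.16 and -0.17 and that of EPCAM was 0.03, none of them called. The part of any of these markers in the results was not tested. All libraries came from the A375 line. In such bulk samples, a change in a share of the cells and a change of RNA in every cell cannot be told apart.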

How the data were processed

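RNA sequencing of 4 A375 libraries, 2 per group, was analysed from 2 deposited tables. Per the submitters' processing notes, bcl2fastq 2.17, Trim Galore, STAR 2.4, Picard, HTSeq 0.9.1, DESeq2 and the build hg38 were used. The annotation, strand use and selection of RNA (poly(A) or other) are not given in the sources used here. One deposited table gives, as its name says, DESeq2-normalised counts, a signal per gene and library. Whole reads were recovered by dividing by the smallest positive value of each library (100% of values within 0.001 of a whole read). The authors' deposited comparison gives the average signal, the log2 fold change and its SE, a test score, and p-values.

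Genes with a mean of at least 10 (20250) were fitted with limma 3.58.1 (R 4.3.3) to log2(normalised count + 1), the variance prior following intensity. Its two-sided p-values were adjusted by Benjamini-Hochberg over all tested genes and called under 0.05. The fit was tested on simulated data. Alternatives were other pseudocounts, filters and scalings, no trend, replicate numbers as blocks, each library left out in turn, and edgeR 4.0.16 and DESeq2 1.42.0 on recovered reads. Gene positions, exons and transcripts came from GENCODE 29, where all 9 genes matched by name. Shared sequence was searched with blastn 2.17.0, keeping matches of 100 bases or more with an identity of 95% or more.

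The genes described, the gene lists and the tests were chosen with earlier results of these data known. Named from each list were up to 3 called genes with the largest rise and up to 3 with the largest fall (mean of at least 100), and the 2 most abundant genes not called. Others, namely MIR100HG, DLX3, TIGD3, CSTF2T, PABPN1, MIR17HG, CPSF7, FRMD8 and the markers named, were chosen after their values were seen. TALAM1, DANCR, MIR31HG, CCAT1, SNHG17 and MTREX were not found by name and are not analysed here. For 1 further gene, counted in its list, values are not reported here.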

Additional observations from a re-analysis of the deposited data

How the results depend on the processing

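The log2 differences of the 9 genes kept their sign in every fit run. NUDT21 went to -0.239 with TMM factors and -0.242 after removing dependence on GC content and length. RBM14 went to -0.262 after the latter. These values lay outside the ranges given by leaving out 1 library (-0.262 to -0.246 for NUDT21, -0.260 to -0.211 for RBM14). Each shift was smaller than the gene's SE of 0.06. After the same removal NONO went to -0.14 and TARDBP to -0.16, inside their ranges. Leaving out 1 library gave 0.78 to 1.06 for NEAT1, 0.95 to 1.19 for MALAT1 and -0.23 to -0.11 for NONO. That removal, and the restriction to GENCODE 29 genes, were chosen after seeing the data. Only 74.8% of tested genes matched GENCODE 29, so the GC and length check is void over all genes; it gave 9 called snoRNA host genes and 8 neighbours.

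Without the low-value filter, 2595 genes were called in all, with 5 of the 9 genes described, 11 other paraspeckle genes, 10 speckle genes, 2 cleavage factors, 0 end-processing genes, 0 other nuclear noncoding RNAs, 2 snoRNA host genes, 1 neighbour and 30 annotated long noncoding genes. Without an intensity trend the same counts were 1625, 1, 3, 6, 0, 0, 0, 0, 2 and 35, with 1 regulator of NEAT1 and 0 paraspeckle-linked genes. The prior degrees of freedom were then 1.57 against 21.2. The share of calls that were higher was 54.1%, and became 67.4% without the trend, 61.5% without the filter, 58.9% with TMM and 64.5% without vehicle 1. End-processing genes numbered 4 with TMM and 11 with equal totals. DESeq2 called 2 other nuclear noncoding RNAs and 50 annotated long noncoding genes.

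Leaving out 1 library gave 11 to 16 other paraspeckle genes, 0 to 5 end-processing genes, 2 to 4 other nuclear noncoding RNAs, 2 to 5 snoRNA host genes, 2 to 4 neighbours and 62 to 80 annotated long noncoding genes. Same-numbered libraries shared only a number in the labels, and their deviations from the group means correlated at 0.126 over the tested genes. With the replicate block 8376 genes were called, all 6048 included, with 25 speckle genes, 10 cleavage factors, 13 end-processing genes, 11 snoRNA host genes, 7 neighbours and 6 paraspeckle-linked genes.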
